A study of Saccharomyces cerevisiae with 24 samples.

Results

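The comparison asks whether deletion of SNF1 changes how nitrogen-limited Saccharomyces cerevisiae responds to inositol and choline. It rests on 12 of the 24 arrays in the series and covers all 5449 yeast genes measured. For each gene the snf1 minus reference difference at the high inositol-choline level was set against the same difference at the low level, and the gap between them is called the interaction here. A positive interaction means that the snf1 mutant stood higher relative to the reference strain at the high level than at the low level, and a negative one the opposite. The 4 groups of 3 arrays were the snf1 mutant at the high level, the reference strain at the high level, the snf1 mutant at the low level and the reference strain at the low level. All cells grew under nitrogen limitation to steady state in chemostats on minimal medium, so no group was without nitrogen limitation. The amounts of inositol and choline, the strain background and the dilution rate were not stated in the labels.

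Snf1 is the kinase subunit of the AMP-activated kinase complex of yeast, known for releasing genes from glucose repression and for inhibiting acetyl-CoA carboxylase, the first enzyme of fatty acid synthesis. Cells build phosphatidylinositol from inositol and can build phosphatidylcholine from choline. In yeast, the Ino2-Ino4 activator drives phospholipid synthesis genes when inositol is scarce, and the repressor Opi1 shuts them off when inositol is supplied. Lack of inositol is also known to trigger the unfolded protein response, in which the endoplasmic reticulum (ER) kinase Ire1 splices HAC1 mRNA and the Hac1 protein induces genes of protein folding.

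SNF1 checked the strain labels. On the log2 scale its level was 4.97 to 4.99 in the snf1 mutant and 7.09 to 8.47 in the reference strain at the high level, and 4.95 to 5.02 in the snf1 mutant and 8.04 to 8.14 in the reference strain at the low level. The mutant arrays all lay below the array background of 5.56 to 5.62, which is the 95th percentile of probe sets with no S. cerevisiae gene. The written descriptions of the 6 snf1 arrays name carbon limitation although their titles carry the letter N, and they were grouped by title. DAL5, an allantoate permease gene that good nitrogen sources repress, lay at 10.85 to 11.97 on the 12 arrays used here and at 6.83 to 7.13 on the 12 carbon-limited arrays. The high-level arrays were less alike than the low-level ones. The mean 3' minus 5' signal of 8 control genes was 1.13 to 2.63 in the snf1 mutant and 1.02 to 2.66 in the reference strain at the high level, against 0.81 to 0.84 in the snf1 mutant and 0.68 to 0.79 in the reference strain at the low level. Within each pair of same-numbered arrays the strains differed in this measure by -0.03 to 0.17. Nothing in the labels says that replicates came from separate cultures, so each p-value reflects the spread among these arrays alone, which may be technical.

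The interaction was called for 498 genes, 9.14% of those tested, at a limma adjusted p under 0.05. It was positive for 274 genes (5.03%) and negative for 224 (4.11%), and the median over all genes was -0.0039. Most calls were small: 11 positive and 10 negative ones reached 2-fold. The difference between strains alone was called for 836 genes (15.3%) at the high level, 390 (7.16%) higher and 446 (8.18%) lower in the snf1 mutant. At the low level it was called for 1584 genes (29.1%), 748 (13.7%) higher and 836 (15.3%) lower in the mutant. Of the 498 genes, 285 had a called strain difference at the low level and not at the high, 84 at the high and not at the low, 63 at both with the same sign, 54 at both with opposite signs and 12 at neither. These classes rest on 2 separate thresholds and describe the genes, while the interaction is the test. In all 498 genes the 3 high-level pair differences lay wholly above or below the 3 low-level ones, as they did in 33.4% of all genes.

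The count depends on keeping same-numbered arrays as pairs. Without the pairs 34 genes were called from the 12 arrays and 113 when the spread was estimated from all 24. Among the 3 pairs of each level, the count was 321 without high-level pair 2, 248 without low-level pair 1, 202 without low-level pair 2 and 173 without low-level pair 3. It was 791 without high-level pair 1, the arrays with the largest 3' minus 5' signal, and 676 without high-level pair 3. The fit uses a single spread per gene, but the pair differences scattered more at the high level (SD over genes 0.0961 to 0.140) than at the low level (0.0507 to 0.0567), so the shared spread is too small for strain differences at the high level and too large for those at the low level. By the same test, 0 of 1746 background probe sets were called by limma and 85 had an unadjusted p under 0.05.

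**Figure D1:**
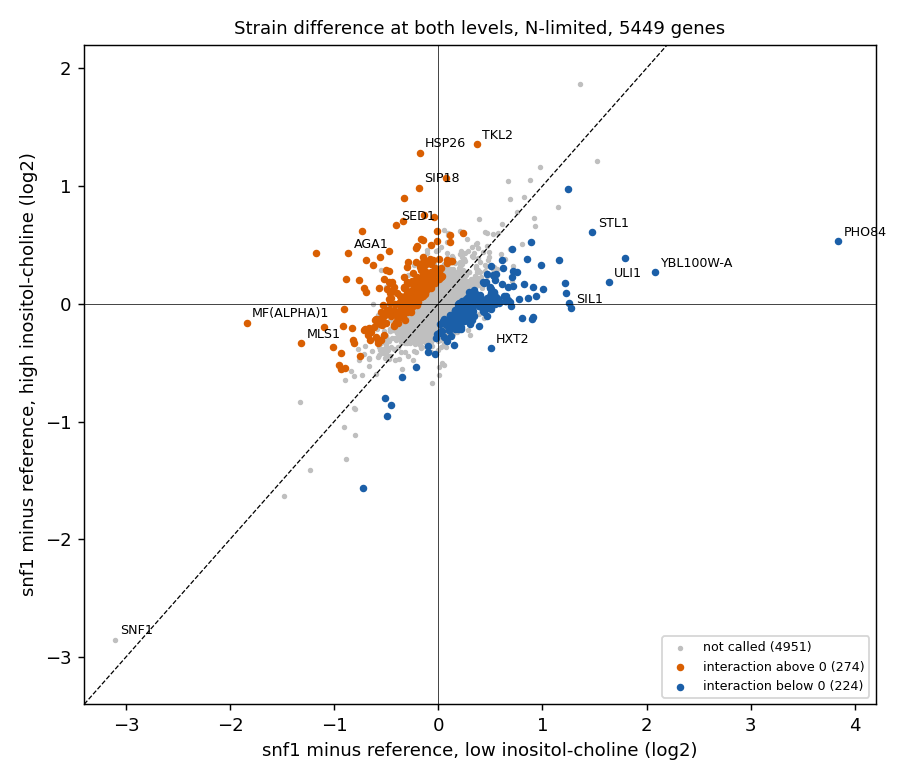
Each point is a gene, placed by the snf1 minus reference difference (log2) at the low level on the x axis and at the high level on the y axis. Points on the dashed diagonal have no interaction; PHO84 lies far below it at 3.84 and 0.53, and MF(ALPHA)1 above it at -1.84 and -0.16.

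Genes of protein folding in the ER held the most negative calls of the 37 gene lists. Of 39 measured genes on this list, 24 (61.5%) had a called negative interaction and 0 a positive one, against 4.11% of all genes called negative. The median interaction of the list was -0.42, and the values ran from -1.45 to 0.02. At the low level 36 of the 39 genes were called higher in the snf1 mutant, against 13.7% of all genes, with a median strain difference of 0.44. At the high level 3 were called higher in the mutant, against 7.16% of all genes, with a median of 0.05. From low to high inositol-choline the median change of the list was -0.36 in the snf1 mutant and 0.02 in the reference strain.

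Several chaperone genes and their helpers were among the calls. SIL1, which encodes a nucleotide exchange factor of the ER chaperone Kar2, had levels of 6.79, 7.22 and 7.21 in the snf1 mutant and 6.80, 7.33 and 7.21 in the reference strain at the high level (log2, arrays 1 to 3). At the low level its levels were 8.84, 8.95 and 8.98 in the snf1 mutant and 7.66, 7.66 and 7.65 in the reference strain. The strains overlapped at the high level and stood clearly apart at the low level. The interaction was -1.31 ± 0.060 (standard error, 3 pairs per level, limma adjusted p = 4.0e-05), a 2.48-fold gap between the strain ratios. KAR2 itself, the BiP chaperone that pulls proteins into the ER and helps them fold, was at 9.86, 10.29 and 10.49 in the snf1 mutant and 9.76, 10.08 and 10.44 in the reference strain at the high level. KAR2 at the low level was at 11.40, 11.44 and 11.49 in the snf1 mutant and 10.45, 10.40 and 10.47 in the reference strain. Its interaction was -0.88 ± 0.060 (adjusted p = 0.000175). LHS1, a further exchange factor for Kar2, had an interaction of -0.87, and the J-protein genes SCJ1 and JEM1, whose products stimulate Kar2, had -0.71 and -0.58. ULI1, a gene that the unfolded protein response induces, gave the most negative value of the list, -1.45 ± 0.070 (adjusted p = 4.0e-05). Its levels were 6.74, 6.61 and 6.46 in the snf1 mutant and 6.41, 6.48 and 6.36 in the reference strain at the high level, and 8.06, 8.14 and 8.16 in the snf1 mutant and 6.47, 6.47 and 6.51 in the reference strain at the low level. All 3 low-level mutant arrays of ULI1 lay above every other array.

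Genes of disulfide bond formation moved the same way. ERO1 encodes the oxidase that supplies disulfides to Pdi1, and its interaction was -1.24 ± 0.080 (adjusted p = 0.000158). ERO1 was at 8.86, 8.30 and 8.39 in the snf1 mutant and 8.81, 8.45 and 8.26 in the reference strain at the high level, and at 9.75, 9.67 and 9.81 in the snf1 mutant and 8.58, 8.39 and 8.50 in the reference strain at the low level. The Pdi1 relatives EUG1 and MPD1 had interactions of -1.03 and -1.02, and PDI1 one of -0.43. In the translocon, the channel through which proteins enter the ER, SEC61, SEC62, SEC63, SEC66, SEC72 and SBH1 were called, with interactions from -0.46 for SEC61 to -0.25 for SBH1, while SSS1 was not (-0.11). The protein O-mannosyltransferase genes PMT1, PMT2 and PMT3 had -0.64, -0.62 and -0.54. DER1, of ER-associated degradation, had -0.58, while HRD1 and HRD3 of the same pathway were not called, at -0.15 and -0.19.

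Neither the sensor gene IRE1 nor HAC1, its target and the factor of the response, passed the test. IRE1 had strain differences of 0.03 at both levels and an interaction of 0.00. HAC1 was called higher in the snf1 mutant at both levels, by 0.37 at the high and 0.48 at the low level, and its interaction of -0.11 did not pass (limma adjusted p = 0.353). The array value for HAC1 does not separate spliced from unspliced mRNA. HAC1 also varied widely among high-level arrays, at 7.07, 9.75 and 10.27 in the snf1 mutant and 6.64, 9.45 and 9.89 in the reference strain, with the lowest value in both strains on the arrays with the largest 3' minus 5' signal. The uncalled OST1, OST2, OST3, STT3 and WBP1, all of the oligosaccharyltransferase, had interactions between -0.28 and -0.02, and SWP1 of the same complex was called at -0.27. HAC1, IRE1 and several other genes in these ER paragraphs were named after their values were seen.

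Leaving out any 1 pair left 18 to 25 negative calls on the ER list. Without the pairs there were 6 calls from the 12 arrays and 12 with the spread of all 24. KAR2 then had an adjusted p of 0.26 from the 12 arrays and 0.0158 with all 24. SIL1, ULI1, ERO1 and MPD1 stayed called in both.

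**Figure D2:**
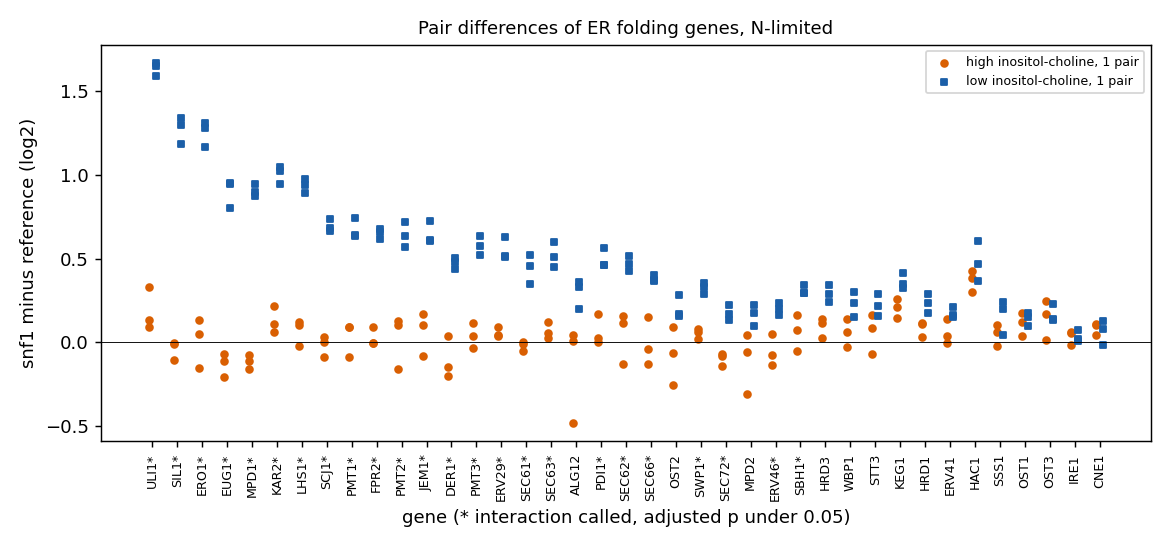
Snf1 minus reference difference (log2) in each of the 6 pairs of arrays, for the 39 ER folding genes in order of their interaction. High-level pairs (circles) have a median strain difference of 0.05 over the list, with HAC1, ULI1 and KEG1 called higher in the snf1 mutant, and low-level pairs (squares) lie above them for the 24 called genes, marked with an asterisk.

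Phosphate genes held the most negative value of all. PHO84, the high-affinity phosphate transporter, was at 6.35, 6.20 and 6.29 in the snf1 mutant and 5.68, 5.71 and 5.85 in the reference strain at the high level. Its low-level values were 9.79, 10.01 and 10.07 in the snf1 mutant and 6.15, 6.04 and 6.16 in the reference strain. The strain difference was 0.53 at the high level and 3.84 at the low level, and the interaction was -3.31 ± 0.098 (limma adjusted p = 2.63e-06), or 9.89-fold. PHO84 changed by -3.68 from low to high in the snf1 mutant and by -0.37 in the reference strain. Among 30 measured genes of phosphate uptake and polyphosphate, 6 (20.0%, against 4.11% of all genes) were called negative and 1 positive, with a list median of -0.08. SPL2, whose product holds back low-affinity phosphate uptake, had -1.04 ± 0.089. SPL2 was at 6.86, 6.67 and 6.58 in the snf1 mutant and 6.56, 6.53 and 6.48 in the reference strain at the high level, and at 7.53, 7.86 and 7.74 in the snf1 mutant and 6.49, 6.50 and 6.49 in the reference strain at the low level. VTC1, VTC3 and VTC4, subunits of the polyphosphate polymerase, had -0.57, -0.82 and -0.35, and the low-affinity transporter gene PHO90 had -0.23. PHM8, a phosphatase gene, was the positive one at 0.24. The secreted acid phosphatase gene PHO5 was called higher in the snf1 mutant at both levels, by 1.21 and 1.52, with an interaction of -0.31 that did not pass (adjusted p = 0.061). The regulators PHO4, PHO2, PHO81, PHO80 and PHO85 had interactions between -0.05 and 0.17, none of them called. Without the pairs PHO84, SPL2 and VTC3 were the members called from the 12 arrays.

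**Figure D3:**
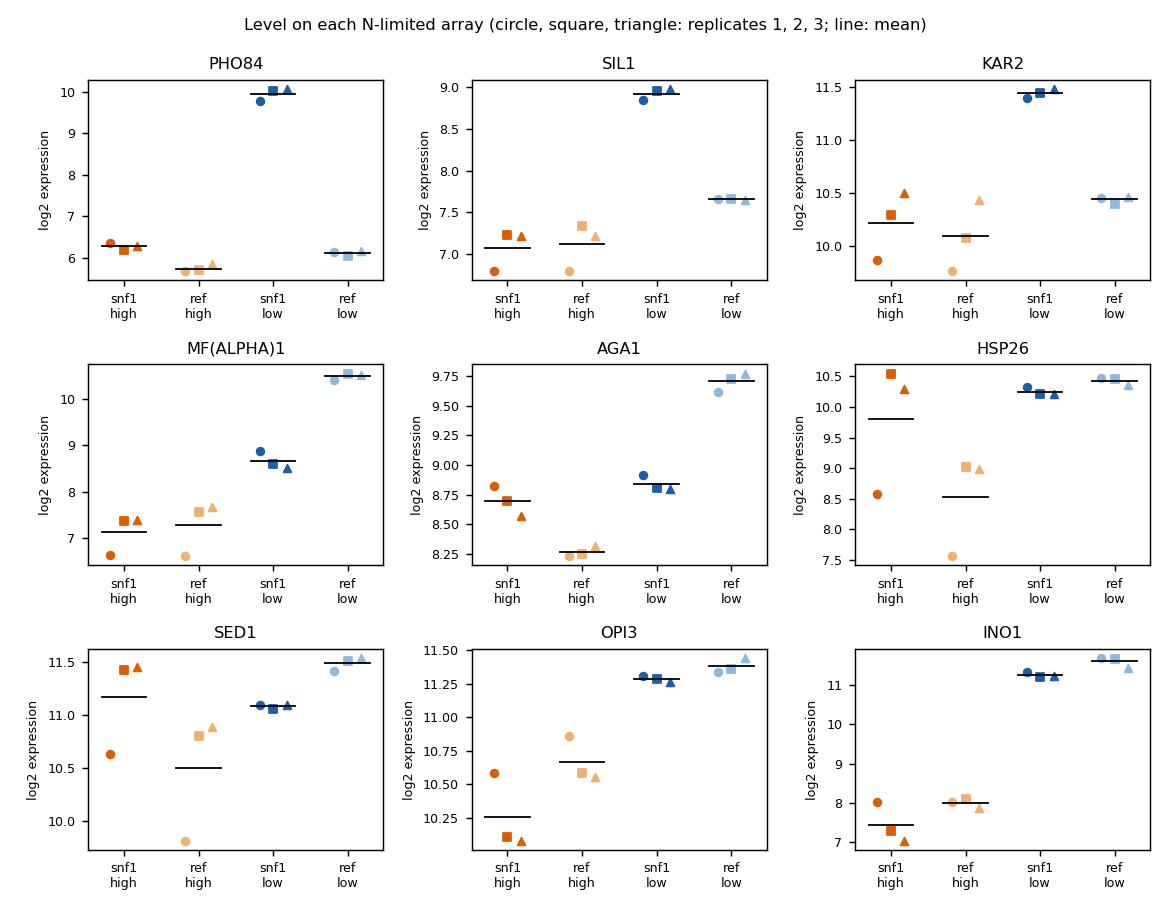
Log2 level of 9 genes on each of the 12 arrays, in the order snf1 high, reference high, snf1 low, reference low, with a line at each group's mean. PHO84, SIL1 and KAR2 are highest in the low-level snf1 arrays, while for HSP26 and SED1 replicate 1 (circle) lies low in both strains at the high level.

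Genes of the pheromone response held the most positive calls of the 37 lists. Of 31 measured genes, 14 (45.2%) had a called positive interaction and 0 a negative one, against 5.03% of all genes called positive. The list median was 0.21. At the high level 11 genes were called higher and 1 lower in the snf1 mutant, against 7.16% and 8.18% of all genes. At the low level 3 were called higher and 17 lower, against 13.7% and 15.3% of all genes. AGA1, the anchor subunit of the a-agglutinin that sticks mating cells together, was at 8.83, 8.70 and 8.57 in the snf1 mutant and 8.23, 8.26 and 8.32 in the reference strain at the high level. At the low level AGA1 was at 8.92, 8.81 and 8.80 in the snf1 mutant and 9.62, 9.73 and 9.77 in the reference strain. The strain difference thus had opposite signs, 0.43 and -0.86, and the interaction was 1.29 ± 0.102 (limma adjusted p = 0.000247). AGA1 changed by -0.14 from low to high in the snf1 mutant and by -1.43 in the reference strain.

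Genes of cell and nuclear fusion behaved alike. FUS1, needed for fusion of mating cells, was at 8.66, 8.26 and 8.15 in the snf1 mutant and 8.23, 7.77 and 7.64 in the reference strain at the high level, and at 8.49, 8.55 and 8.53 in the snf1 mutant and 8.65, 8.75 and 8.81 in the reference strain at the low level. Its interaction was 0.68 ± 0.054 (adjusted p = 0.000247). FUS2 had 0.66, the membrane fusion gene PRM1 had 0.96, the pheromone-regulated gene PRM6 had 1.10, and the adhesin gene FIG2 had 0.97. FIG1, of calcium influx during mating, had a fitted value of 0.92, which is no bound because 1 of its groups lay below background on all arrays. KAR4 and KAR5, of nuclear fusion, had 0.51 and 0.33, and FAR1, which arrests the cell cycle in response to pheromone, had 0.47. The signalling core did not pass: STE4, STE18, STE20, STE5, STE11, STE7, KSS1, FUS3 and STE12 had interactions between -0.07 and 0.20. Several of these core genes were named after their values were seen.

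The genes of cell type followed. Of 7 genes specific to a cells, 5 were called positive: AGA2 (0.84), ASG7 (0.63), MFA2 (0.34), BAR1 (0.30) and MFA1 (0.25), while the receptor gene STE2 and the exporter gene STE6 had 0.16 and 0.19 and were not called. Of 4 genes specific to alpha cells, 3 were called positive. MF(ALPHA)1, which encodes the alpha pheromone, had the most positive interaction of all genes, 1.68 ± 0.130 (adjusted p = 0.000236). MF(ALPHA)1 was at 6.62, 7.35 and 7.37 in the snf1 mutant and 6.60, 7.56 and 7.66 in the reference strain at the high level, and at 8.87, 8.60 and 8.52 in the snf1 mutant and 10.42, 10.56 and 10.53 in the reference strain at the low level. SAG1, the alpha-agglutinin, had 0.35. MF(ALPHA)2 was also called, but lay below background in all 4 groups. The summed level of the alpha-cell markers was 8.76 to 8.86 in the snf1 mutant and 8.72 to 8.87 in the reference strain at the high level, against 9.27 to 9.49 in the snf1 mutant and 10.68 to 10.81 in the reference strain at the low level. The summed level of the a-cell markers was 13.45 to 13.59 in the snf1 mutant and 13.36 to 13.50 in the reference strain at the high level, and 13.33 to 13.36 in the snf1 mutant and 13.54 to 13.64 in the reference strain at the low level. The labels give no mating type. At the low level the summed markers of both types were lower in the snf1 mutant, as were most pheromone response genes. The alpha-cell sum of the low-level reference strain was mostly MF(ALPHA)1, at 10.42 to 10.56. The alpha-specific genes did not all fall together. At the low level 2 of the 4 were called lower in the snf1 mutant. The 1 without a called interaction was called higher in the mutant at both levels. In these bulk cultures fewer cells of a type and less RNA per cell cannot be told apart, and their part in the result was not tested. The summed level of 5 meiotic markers stayed between 8.64 and 9.24, with SPO11 below background in the snf1 mutant at the high level and IME2 in the reference strain at the low level.

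Reading frames of the Ty3 retrotransposon, which mating pheromone is known to induce, were also among the most positive. The probe set of YGR109W-A was at 8.38, 8.12 and 7.75 in the snf1 mutant and 7.88, 7.77 and 7.31 in the reference strain at the high level, and at 8.35, 8.05 and 8.11 in the snf1 mutant and 9.26, 9.23 and 9.52 in the reference strain at the low level. Its interaction was 1.61 ± 0.115 (limma adjusted p = 0.000183), and that of YIL082W-A was 1.07. Both probe sets are shared among near-identical copies, so neither value belongs to a single locus.

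Without the pairs 5 pheromone response genes were called from the 12 arrays and 8 with the spread of all 24, and 0 and 2 of the a-specific genes. AGA1 stayed called in both fits, while MF(ALPHA)1 had an adjusted p of 0.147 from the 12 arrays and 0.00319 with all 24. Leaving out any 1 pair left 12 to 15 pheromone response genes called. The a-specific count was 3 without low-level pair 2 and 2 without low-level pair 3. Of the alpha-specific genes 0 were called without the pairs from the 12 arrays, 1 with all 24, and 1 without any 1 of the low-level pairs.

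**Figure D4:**
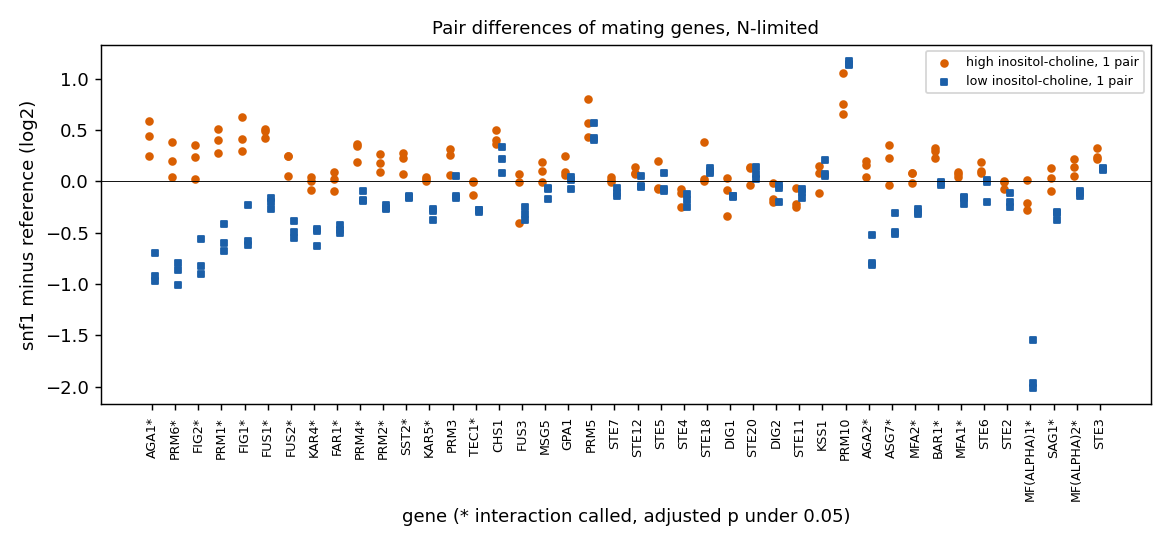
Snf1 minus reference difference (log2) in each of the 6 pairs of arrays for pheromone response, a-specific and alpha-specific genes. In the called genes, marked with an asterisk, low-level pairs (squares) lie below high-level pairs (circles), furthest for MF(ALPHA)1 and AGA1.

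Stress genes were partly positive. Of 40 measured genes of heat shock and general stress, 11 (27.5%, against 5.03% of all genes) were called positive and 1 (2.50%, against 4.11%) negative, GRE2 at -0.19, with a list median of 0.09. HSP26, a small heat shock protein, was at 8.58, 10.55 and 10.29 in the snf1 mutant and 7.57, 9.02 and 8.99 in the reference strain at the high level, and at 10.32, 10.22 and 10.21 in the snf1 mutant and 10.48, 10.45 and 10.35 in the reference strain at the low level. Replicate 1 of both strains was low at the high level, so that the groups overlapped as arrays while the mutant stood higher in each high-level pair. The interaction of HSP26 was 1.46 ± 0.115 (limma adjusted p = 0.000247). Without the pairs its adjusted p was 0.822 from the 12 arrays and 0.216 with all 24. DDR2, induced by many stresses, was at 10.59, 10.77 and 10.49 in the snf1 mutant and 10.11, 10.06 and 9.83 in the reference strain at the high level, and at 9.59, 9.47 and 9.45 in the snf1 mutant and 10.13, 10.36 and 10.24 in the reference strain at the low level. DDR2 did not overlap between strains at either level, with strain differences of 0.62 and -0.74 and an interaction of 1.36 ± 0.097 (adjusted p = 0.000183), and it stayed called without the pairs. The stress-induced genes YGP1, SIP18, RTN2 and HSP30 had interactions of 0.99, 1.17, 0.65 and 0.57. The classical chaperone genes SSA1, SSA2, HSP82, HSC82, YDJ1 and HSP104 were not called, with values between -0.25 and 0.34. DDR2 was the only stress gene of the 11 called without the pairs from the 12 arrays, and the count was 6 without low-level pair 2 and 7 without low-level pair 3.

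Cell wall and glycosylphosphatidylinositol (GPI) anchor genes moved in both directions, 7 positive (15.9%, against 5.03% of all genes) and 3 negative (6.82%, against 4.11%) among 44, with a list median of 0.05. MCD4, an ethanolamine phosphate transferase of GPI synthesis, went with the ER genes. MCD4 was at 7.84, 7.88 and 8.07 in the snf1 mutant and 7.82, 7.82 and 7.90 in the reference strain at the high level, and at 9.04, 8.99 and 9.11 in the snf1 mutant and 7.85, 7.84 and 7.77 in the reference strain at the low level. Its interaction was -1.14 ± 0.069 (limma adjusted p = 0.000147). The wall protein genes named below that were called had positive interactions. SED1, an abundant GPI-anchored wall protein, was at 10.63, 11.43 and 11.46 in the snf1 mutant and 9.81, 10.80 and 10.89 in the reference strain at the high level, and at 11.09, 11.05 and 11.10 in the snf1 mutant and 11.42, 11.51 and 11.53 in the reference strain at the low level. SED1 had an interaction of 1.08 ± 0.076 (adjusted p = 0.000183). Without the pairs its limma adjusted p was 0.517 from the 12 arrays and 0.0635 with all 24. PIR3, HPF1 and HSP150, further wall glycoproteins, had 1.04, 0.75 and 0.41. YPS1, a GPI-anchored surface protease, was called at -0.32 (adjusted p = 0.00825), and the wall proteins CWP1 and CIS3 had -0.20 and 0.02 and were not called. SLT2, the kinase of the cell integrity pathway, and RLM1, its transcription factor, had 0.28 and 0.29. Without the pairs 1 positive and 1 negative call remained from the 12 arrays, PIR3 and MCD4. The positive count was 4 without any 1 of the low-level pairs and 11 without high-level pair 1, and the negative count was 1 without low-level pair 3.

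Of 26 measured genes of inositol and phospholipid synthesis, 4 (15.4%, against 4.11% of all genes) were called negative and 0 positive, and the list median was -0.02. Called or not, interactions lay below 0 for 14 of the 26. They ran from -0.42 to 0.83, and the highest was not called. INO1, inositol-3-phosphate synthase, was at 8.02, 7.28 and 7.04 in the snf1 mutant and 8.03, 8.09 and 7.88 in the reference strain at the high level, and at 11.32, 11.21 and 11.23 in the snf1 mutant and 11.68, 11.67 and 11.45 in the reference strain at the low level. From the low to the high level INO1 changed by -3.81 in the snf1 mutant and by -3.60 in the reference strain. The interaction of INO1 was -0.21 ± 0.201 and did not pass (limma adjusted p = 0.54). In high-level pair 1 the strains were level with each other, and without that pair the interaction was -0.48 with an adjusted p of 0.00165.

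The methyltransferases that make phosphatidylcholine from phosphatidylethanolamine were both called. CHO2, which adds the first methyl group, was at 10.43, 10.15 and 10.09 in the snf1 mutant and 10.38, 10.15 and 10.17 in the reference strain at the high level, and at 10.49, 10.50 and 10.46 in the snf1 mutant and 10.11, 10.13 and 9.98 in the reference strain at the low level. Its interaction was -0.42 ± 0.058 (adjusted p = 0.00381). OPI3, which adds the remaining ones, was at 10.59, 10.11 and 10.08 in the snf1 mutant and 10.86, 10.58 and 10.55 in the reference strain at the high level, and at 11.31, 11.29 and 11.26 in the snf1 mutant and 11.34, 11.36 and 11.44 in the reference strain at the low level. Here the strains parted at the high level instead, by -0.41, and the interaction was -0.31 ± 0.072 (adjusted p = 0.0338). The OPI3 call was lost with quantile normalization (adjusted p = 0.166) and on leaving out any 1 pair other than high-level pair 1. The diacylglycerol kinase gene DGK1 and the glycerophosphoinositol transporter gene GIT1 had -0.25 and -0.33. Phosphatidylserine synthase CHO1, the inositol transporter ITR1 and the choline transporter HNM1 had interactions of -0.03, 0.00 and 0.04, none of them called. Without the pairs none of the list was called, and the negative count was 2 without high-level pair 2 or 3 and 1 without any 1 of the low-level pairs. Positive calls on the list numbered 1 with a random block or array weights, 2 without high-level pair 1 and 0 in the other fits. None of the 8 regulators on the list of INO2, INO4 and OPI1 was called, with values from -0.07 to 0.13.

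Fatty acid genes gave 3 positive calls (16.7%, against 5.03% of all genes) and 1 negative (5.56%, against 4.11%) among 18. OLE1, the delta-9 desaturase, was at 11.18, 10.95 and 11.22 in the snf1 mutant and 10.91, 10.57 and 10.96 in the reference strain at the high level, and at 10.79, 10.50 and 10.77 in the snf1 mutant and 10.76, 10.56 and 10.84 in the reference strain at the low level. The mutant exceeded the reference in each high-level pair, and the interaction was 0.34 ± 0.057 (limma adjusted p = 0.00888). SPT23, an activator of OLE1, had 0.24, and the elongase gene ELO3 had -0.36. ACC1, acetyl-CoA carboxylase, had 0.23 ± 0.054 (adjusted p = 0.0344), a call lost on leaving out high-level pair 2 or any 1 low-level pair, as was that of SPT23. The OLE1 and ELO3 calls were lost without low-level pair 2 or 3. The positive count of the list was 1 without high-level pair 2, 5 without high-level pair 3, and 1, 0 and 0 without low-level pairs 1, 2 and 3. FAS1, a subunit gene of fatty acid synthase, had 0.25 and did not pass (adjusted p = 0.0621). In ergosterol synthesis ERG2 was the single call of 26 genes, at -0.28, and was lost without any 1 low-level pair. Without the pairs no gene of the fatty acid or ergosterol lists was called.

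Carbon metabolism showed a mixed picture. In the tricarboxylic acid cycle 4 of 18 genes (22.2%, against 5.03% of all genes) were called positive and 0 negative: IDH1 (0.42) and IDH2 (0.50), the subunits of isocitrate dehydrogenase, with ACO1 (0.36), aconitase, and SDH2 (0.35), a subunit of succinate dehydrogenase. That count was 0 without the pairs from the 12 arrays, 1 with all 24, 2 without low-level pair 3, 8 without high-level pair 1 and 7 without high-level pair 3. Of 40 genes of the respiratory chain and ATP synthase, 22 were called lower in the snf1 mutant at the high level, against 8.18% of all genes. At the low level 35 were called lower in the mutant, against 15.3% of all genes. A called positive interaction was found for 4 (10%, against 5.03% of all genes): COX12, ATP19, INH1 and COX13, from 0.25 to 0.31. This count was 0 without the pairs from the 12 arrays, 1 with all 24, 12 without high-level pair 1, 2 without high-level pair 2, low-level pair 1 or low-level pair 2, and 0 without low-level pair 3. MLS1, malate synthase of the glyoxylate cycle, was at 9.38, 9.66 and 9.50 in the snf1 mutant and 9.48, 10.01 and 10.05 in the reference strain at the high level, and at 8.18, 8.08 and 8.10 in the snf1 mutant and 9.40, 9.52 and 9.40 in the reference strain at the low level. The MLS1 strain difference was -0.33 at the high level and -1.32 at the low level, with an interaction of 0.98 ± 0.110 (limma adjusted p = 0.0015). Without the pairs its limma adjusted p was 0.0652 from the 12 arrays and 0.00323 with all 24. In the pentose phosphate pathway, the transketolase gene TKL2 had 0.98, with GND2 and SOL4 at 0.57 and 0.50, whereas GND1, SOL3 and NQM1 had -0.34, -0.44 and -0.28. Among the 16 genes 3 (18.8%, against 5.03% of all genes) were positive and 3 (18.8%, against 4.11%) negative. These counts were 1 and 0 without the pairs from the 12 arrays, and the negative count was 1 without low-level pair 3. TKL2 averaged 7.06 ± 0.16 in the snf1 mutant and 5.71 ± 0.090 in the reference strain at the high level, the reference arrays being close to background, and 6.31 ± 0.088 in the snf1 mutant and 5.94 ± 0.066 in the reference strain at the low level (SD, n = 3 arrays each).

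Among Snf1 complex members and partners, 2 (11.1%, against 5.03% of all genes) were positive and 1 (5.56%, against 4.11%) negative of 18. TOS3, a kinase that activates Snf1, was at 6.72, 6.69 and 6.56 in the snf1 mutant and 6.72, 6.62 and 6.60 in the reference strain at the high level, and at 7.17, 7.24 and 7.24 in the snf1 mutant and 6.67, 6.64 and 6.58 in the reference strain at the low level. Its interaction was -0.58 ± 0.062 (limma adjusted p = 0.00135), and it stayed called without the pairs. MIG3, a repressor, and SIP2, a beta subunit of the complex, had 0.41 and 0.28. The 2 positive calls were 0 without the pairs from the 12 arrays, 1 without high-level pair 2, low-level pair 1 or low-level pair 2, and 0 without low-level pair 3. The hexose transporter gene HXT2 had -0.88 and the glycerol transporter gene STL1 -0.87. The reference arrays of STL1 lay close to background, at 5.72, 5.58 and 5.79 at the high level and 5.55, 5.45 and 5.61 at the low level. The size of its interaction is therefore uncertain. HXT7, read from a probe set shared with HXT6, had strain differences of -1.63 at the high and -1.48 at the low level and an interaction of -0.15 that did not pass.

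Nitrogen genes gave calls in both directions. The ammonium transporter MEP2 had an interaction of 0.11, the general amino acid permease GAP1 0.18 and the acidic amino acid permease DIP5 -0.09, none of them called. Of 30 genes of nitrogen catabolite repression and allantoin use, 3 (10%, against 5.03% of all genes) were positive and 2 (6.67%, against 4.11%) negative. The arginase gene CAR1 was at 6.88, 7.47 and 7.29 in the snf1 mutant and 6.47, 7.05 and 7.01 in the reference strain at the high level, and at 8.20, 8.42 and 8.30 in the snf1 mutant and 7.12, 7.14 and 7.20 in the reference strain at the low level. CAR1 was higher in the mutant in all 6 pairs, with an interaction of -0.79 ± 0.070 (limma adjusted p = 0.000466). Without the pairs its limma adjusted p was 0.331 from the 12 arrays and 0.0357 with all 24. The urea permease gene DUR3 had 0.73 and the activator gene GAT1 0.49. Of 28 permeases 6 (21.4%, against 5.03% of all genes) were positive and 1 negative, with the oligopeptide transporter OPT1 at 0.79. Of 54 amino acid synthesis genes under Gcn4, 0 were positive and 7 negative, against 4.11% of all genes negative, with homocitrate synthase LYS20 at -0.56 ± 0.066 (adjusted p = 0.00175). Without the pairs 0 members of these 3 lists were called from the 12 arrays, among them LYS20 with an adjusted p of 0.642. The positive permease count was 2 without high-level pair 2 and 3, 1 and 2 without low-level pairs 1, 2 and 3, and the negative Gcn4 count was 2, 1 and 1 without those low-level pairs. The positive count of the catabolite repression list was 9 without high-level pair 1, 1 without high-level pair 2, 7 without high-level pair 3, and 1, 1 and 0 without low-level pairs 1, 2 and 3.

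**Figure D5:**
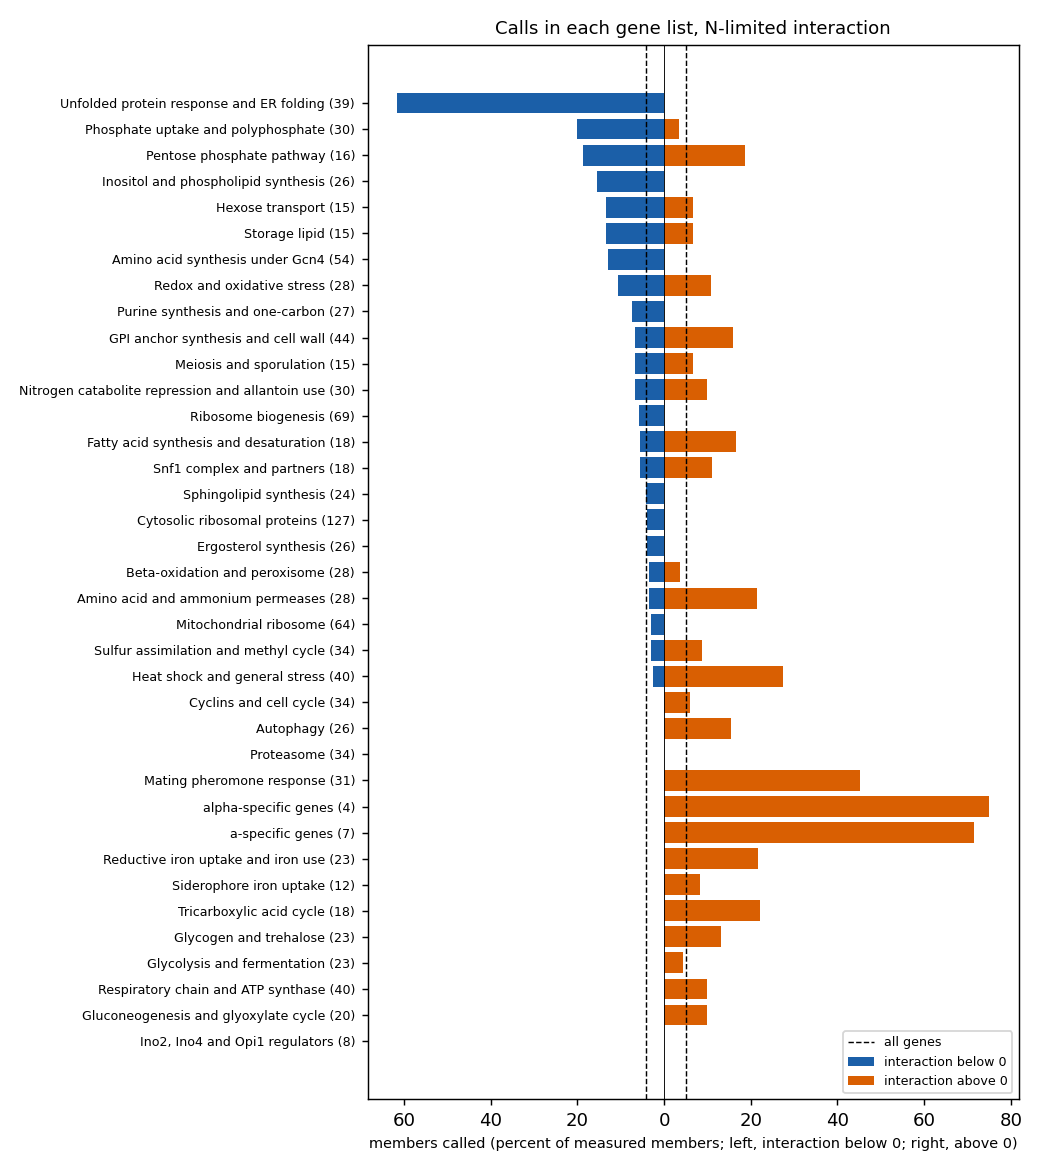
Share of each list's measured members with a called negative (left) or positive (right) interaction, with dashed lines at 4.11% and 5.03%, the shares of all genes. ER folding reaches 61.5% on the left; the mating lists reach 45.2%, 71.4% and 75.0% on the right, the last on 4 genes.

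The same interaction for the 12 carbon-limited arrays was called for 865 genes (15.9%), with the spread estimated from 12 pair differences of both limitations. The 498 nitrogen-limited calls used the spread of 6 pair differences, so these counts come from unlike fits. Nitrogen-limited and carbon-limited values differed for 721 genes (13.2%) by limma on the 12 pair differences. The ER list was negative under nitrogen limitation and not under carbon limitation, where 12 of 39 genes were called positive and 0 negative, with a median of 0.14. The difference itself was called for 27 of the 39. ULI1 had -1.45 under nitrogen and 1.32 under carbon limitation, a difference of -2.77 (adjusted p = 2.8e-09), and SIL1 had -1.31 and 0.30 (difference -1.61, adjusted p = 2.16e-07). PHO84 was negative in both, -3.31 and -1.14, and still differed by -2.17 (adjusted p = 1.41e-07). For mating, AGA1 had 1.29 and -0.04 (difference 1.33, adjusted p = 3.59e-05), and 10 of the 31 pheromone response genes differed.

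Under carbon limitation 14 of 26 phospholipid genes were called negative and 0 positive, against 15.9% of all genes called in either direction. Of 18 fatty acid genes 5 were called negative there and 0 positive. These calls used the spread of the 12 pair differences, unlike the nitrogen-limited ones. INO1 had -0.21 under nitrogen limitation and -4.05 under carbon limitation, a difference of 3.84 ± 0.25 (limma adjusted p = 4.68e-07). ITR1, CHO1 and HNM1, uncalled here, differed from their carbon-limited values by 0.91, 0.60 and 0.68. Of the 26 phospholipid genes 11 differed, and of 26 ergosterol genes 18, against 13.2% of all genes. Under carbon limitation 19 of the ergosterol genes were called positive. MLS1 changed sign, with 0.98 under nitrogen and -1.90 under carbon limitation. For DDR2 the values were 1.36 and 0.06 (difference 1.29, adjusted p = 1.31e-05), whereas for SIP18 they were 1.17 and 1.22 and did not differ by the test (adjusted p = 0.924, difference -0.05 ± 0.24). CHO2 likewise had -0.42 and -0.58 (difference 0.16 ± 0.11, adjusted p = 0.399). Over the 498 genes called under nitrogen limitation, 278 differed from carbon limitation, against 13.2% of all genes. These genes were chosen by their nitrogen-limited value, which is part of that difference, so the selection itself raises the share. The same holds for the ER list and for genes named for a large nitrogen-limited value. Of the 498 genes, 62 were called under carbon limitation with the same sign and 93 with the opposite sign, against 15.9% of all genes called there.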

How the data were processed

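The values are log2 expression values per probe set from Affymetrix yeast arrays, 1 biotin-labelled total RNA sample each, deposited by the authors and summarised with PLIER, per the submitters' processing notes, with version, background step and normalization not given in the sources used here. Base 2 was assumed from the range of 4.82 to 13.25, and every fold rests on it. Column medians of the 12 arrays were 5.93 to 6.00, and no scaling was applied. Arrays give no read depth, and their number limits the precision.

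Of 10928 probe sets, 7244 carried 1 gene symbol in the platform annotation, 1 several and 3683 none; 5498 matched S. cerevisiae, 12 symbols were updated, and 47 genes with several probe sets kept the brightest on average, leaving 5449. The background came from 1746 named probe sets that match no S. cerevisiae gene. Interactions were fitted to 6 pair differences, snf1 minus reference, with limma 3.58.1 in R 4.3.3 (lmFit, eBayes) and Benjamini-Hochberg adjustment over all genes at a threshold of 0.05. The pairing comes from the replicate numbers in the titles: deviations from group means of same-numbered arrays correlated across genes at 0.901, 0.784 and 0.868 at the high level and at 0.165, 0.313 and 0.405 at the low level. The fit was tested on simulated data with the same spread at both levels for each gene. That test does not cover the larger scatter of the real high-level pair differences. The comparison with carbon limitation was added after the data were seen.

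Members, the 37 gene lists and tests were chosen with earlier results of these data known. Named genes are 16 fixed ones, the 15 largest called values in each direction with no group below background, the 3 largest with such a group, up to 4 called members per direction of each list, and the 3 largest of each pattern of strain differences; other list members named were chosen after their values were seen. Alternatives were fits without pairs or with a random block, quantile normalization, median centring, no dim genes, trended and robust moderation, array weights, all probe sets, a 3' minus 5' covariate and leaving out each pair. Promoter sequences were not used here.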

Additional observations from a re-analysis of the deposited data

Results flagged for a closer look

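A strain difference that itself differed between the inositol-choline levels, tested as the interaction, was found for 498 genes. The values that follow are log2 interactions of the 30 with the largest values and no group below background on all its arrays. The 15 positive ones were MF(ALPHA)1 at 1.68, YGR109W-A at 1.61, HSP26 at 1.46, DDR2 at 1.36, AGA1 at 1.29, FMP16 at 1.23, SIP18 at 1.17, PRM6 at 1.10, SED1 at 1.08, YIL082W-A at 1.07, PIR3 at 1.04, YGP1 at 0.99, MLS1 at 0.98, TKL2 at 0.98 and FIG2 at 0.97. The 15 negative ones were PHO84 at -3.31, YBL100W-A at -1.81, ULI1 at -1.45, YET2 at -1.40, SIL1 at -1.31, ERO1 at -1.24, MCD4 at -1.14, SPL2 at -1.04, EUG1 at -1.03, MPD1 at -1.02, DOG2 at -0.92, HXT2 at -0.88, KAR2 at -0.88, STL1 at -0.87 and LHS1 at -0.87. YBL100W-A, a Ty retrotransposon reading frame, was read from a shared probe set and scattered widely, at 8.91, 8.64 and 7.71 in the snf1 mutant and 8.10, 8.55 and 7.81 in the reference strain at the high level, and at 9.40, 8.46 and 8.63 in the snf1 mutant and 7.55, 6.20 and 6.49 in the reference strain at the low level. Its limma adjusted p without the pairs was 0.38 from the 12 arrays and 0.405 with all 24, so it was called in neither fit.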

How the results depend on the processing

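Without the pairs, the interaction calls numbered 34 from the 12 arrays (18 positive, 16 negative) and 113 with all 24 (57 and 56), the high-level strain difference 60 and 226, and the low-level one 268 and 530. Leaving out 1 pair gave 173 to 791 interaction calls (96 to 410 positive, 77 to 381 negative), 432 to 1032 at the high level and 724 to 2275 at the low level. Array weights gave 526 and 2718 strain differences at the high and low level. Interaction counts under a random block (591), quantile normalization (505), median centring (507), leaving out 298 dim genes (492), trended and robust moderation (510), array weights (658), all probe sets (503) and the 3' minus 5' covariate (463) stayed within 1.5 times 498. Of 140 called genes named by rule, 23 stayed called without pairs from 12 arrays, 52 with all 24, and 123 with the covariate; in the fits without 1 pair, the lowest number was 63. Interactions of 5 uncalled genes changed sign when 1 pair was left out, with ranges of -0.046 to 0.0058 for CHO1, -0.16 to 0.031 for DIP5, -0.0065 to 0.098 for HNM1, -0.070 to 0.073 for ITR1 and -0.12 to 0.58 for SNF1. ITR1 was also at -0.030 with array weights, -0.018 with the covariate and -0.00057 with median centring. The cause was not tested. Leaving out the arrays with disagreeing labels was not run, since they are all the mutant arrays. Low signal over background limits dim genes: 19 called genes had a group below background, and 203 genes had all 4 groups below it.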

Other observations

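Iron genes of the reductive pathway and iron use gave 5 positive (21.7%, against 5.03% of all genes) and 0 negative calls among 23. The count was 1 without the pairs in both fits, 2 without any 1 low-level pair, and 3 with quantile normalization or the 3' minus 5' covariate. HMX1, heme oxygenase, had an interaction of 0.46, the ferroxidase FET3 0.56, and the iron regulators AFT1 and AFT2 had 0.33 and 0.21. FET3 had -1.48 under carbon limitation, a difference of 2.04 ± 0.29 (limma adjusted p = 0.00035). The siderophore mannoprotein gene FIT2 had 0.28 and -3.03, a difference of 3.32 ± 0.38 (adjusted p = 7.29e-05).

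Genes of protein synthesis were called negative at shares near the 4.11% of all genes. Of 127 cytosolic ribosomal protein genes, 0 were positive and 5 (3.94%) negative, with a median of -0.12, and of 69 ribosome biogenesis genes 0 were positive and 4 (5.80%) negative. Leaving out 1 pair moved the ribosomal protein count between 0 without low-level pair 1 or 3 and 17 without high-level pair 3, and the biogenesis count between 0 without high-level pair 2 or any 1 low-level pair and 13 without high-level pair 1. The ribosomal protein count was also 10 without high-level pair 1 and 1 without high-level pair 2 or low-level pair 2, and the biogenesis count 11 without high-level pair 3. Called or not, interactions lay below 0 for 118 of the 127 ribosomal protein genes and 66 of the 69 biogenesis genes. The biogenesis median was -0.13, against -0.0039 over all genes. At the low level 41 of the 69 biogenesis genes were called higher in the snf1 mutant, against 13.7% of all genes. None of 34 proteasome genes was called by limma. Autophagy gave 4 positive calls of 26 (15.4%, against 5.03% of all genes), ATG34, ATG19, ATG8 and ATG22, with values from 0.24 to 0.38. That count was 0 without the pairs in both fits, 1 without high-level pair 2 or any 1 low-level pair, and 6 in the other fits that left out a pair. FMP16, a mitochondrial protein gene of the positive set, was at 9.01, 8.76 and 8.47 in the snf1 mutant and 8.06, 7.81 and 7.65 in the reference strain at the high level, and at 8.07, 7.89 and 7.95 in the snf1 mutant and 8.22, 8.38 and 8.28 in the reference strain at the low level. YET2, an ER membrane protein gene outside the ER list, was at 7.37, 6.67 and 6.55 in the snf1 mutant and 7.08, 6.39 and 5.96 in the reference strain at the high level, and at 8.15, 8.13 and 8.16 in the snf1 mutant and 6.31, 6.40 and 6.36 in the reference strain at the low level.
Among called genes with a group below background, whose fitted values are no bounds, HOP1, YDR541C and SLZ1 had -0.48, -0.45 and -0.44, and NCA3 and CRR1 had 0.48 and 0.42.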
